A study of Mus musculus with 6 samples.

Results

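The genes described here are 34 genes of autophagy and the lysosome, taken by symbol from a fixed list and all found among the 57508 rows of the expression tables. They are 5 members of the ATG8 family and 1 cargo receptor, 8 genes of initiation and nucleation, 6 genes of the ATG8 conjugation machinery, the 3 TFEB family genes, 4 genes of the lysosomal membrane and 7 of the lysosomal lumen. RNA was sequenced from KPC1199, a mouse line of pancreatic tumour cells, in 3 libraries with the genotype ACSL5 knockdown and 3 libraries with the genotype WT. ACSL5 is an enzyme that activates long-chain fatty acids with coenzyme A, and the series was made to study its function in pancreatic ductal adenocarcinoma. Titles call the knockdown libraries KO, although their genotype is given as knockdown. Library names are siACSL5_2260 for knockdown and siACSL5_CY3 for WT, and what the suffixes mean is not explained. Both groups are the same single line and no other treatment is given. Whether replicates were separate cultures is not stated, so p-values here measure a spread between libraries that may be technical.

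Autophagy encloses cytoplasm in a double membrane, the autophagosome, which fuses with the lysosome, where acid hydrolases degrade its contents. The ULK kinases start the process, the Beclin 1 complex marks the membrane with phosphatidylinositol 3-phosphate, and a ubiquitin-like conjugation system attaches ATG8 proteins to it. TFEB and TFE3 are transcription factors that activate lysosomal and autophagy genes through E-box motifs, and in human pancreatic cancer MiT/TFE factors are known to sustain lysosome function. RNA levels measure neither the proteins nor the flux through the pathway.

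Acsl5 (ENSMUSG00000024981), the targeted gene, had 49.7, 55.6 and 57.2 CPM (read counts scaled by TMM to a common library size) in the knockdown libraries, against 342, 265 and 269.9 CPM in the WT libraries. No knockdown library came near a WT library, and the knockdown mean was 18.5% of the WT mean (two-sided exact permutation p = 0.1, the smallest that 3 against 3 libraries can give). In edgeR the log2 fold change was -2.43 over the 6 libraries (SE 0.167, adjusted p = 0.0619) and -2.32 without WT replicate 1 (SE 0.0638, adjusted p = 5.95e-08). WT replicate 1 stood apart: its log2 CPM correlated with the other 5 libraries at 0.902 to 0.921 (Pearson, across 14679 genes of these libraries), while the other 10 pairs correlated at 0.972 to 0.992. In WT replicate 1, short genes were high and long genes low against the mean of the other 5 libraries (Spearman -0.33 with gene length over the 34 members and -0.57 over all genes, genes not being independent replicates). Of the members, 4 were more than 1 log2 unit above that mean in WT replicate 1 and 1 was more than 1 unit below it, while no member was so far from it in any other library. Each member is therefore given both over the 6 libraries and without WT replicate 1, that is, with the 3 knockdown libraries against WT replicates 2 and 3 (the 5-library fit). Library totals lay between 21794244 and 29996194 counts. Epithelial markers were present in every library (7850 to 8610 summed TPM, length-scaled transcript shares, in knockdown libraries, against 8520 to 9050 in WT libraries). Of the other lists, Adgre1 and Tyrobp (macrophage), Lum (fibroblast), Cdh5 and Tek (endothelial) and Mlana (melanocyte) were at 0 in all 6 libraries. Other genes of the macrophage and fibroblast lists were present. Across the 6 libraries, Cd14 had 50.2 to 86.6 TPM, Mrc1 16.0 to 35.0 and Cd68 3.42 to 8.49 (macrophage). Pdgfra had 5.92 to 24.7 TPM, Pdgfrb 1.13 to 6.85 and Col1a1 0.92 to 3.16 (fibroblast). The whole fibroblast list summed to 21.5 to 24.2 TPM in the knockdown libraries, against 7.97 to 31.4 TPM in the WT libraries, with 3 of its 6 genes below 1 TPM everywhere. All 4 genes of the endothelial and all 4 of the melanocyte list were below 1 TPM everywhere. The whole macrophage list summed to 111 to 114 TPM in the knockdown libraries, against 69.8 to 105 TPM in the WT libraries, with 6 of its 9 genes below 1 TPM everywhere, and the part of these lists in the results was not tested.

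Members moved in both directions in the knockdown cells. Without WT replicate 1, 15 of the 34 members passed the test (edgeR quasi-likelihood F test, Benjamini-Hochberg adjusted p below 0.05), which is 44.1%, beside 34.3% of all 15152 genes tested. Gabarapl1, Sqstm1, Ulk1, Atg14, Tfeb, Tfe3, Lamp1 and Ctsz were the 8 that rose, beside 16.3% of all genes, and Ulk2, Becn1, Wipi1, Atg3, Atg5, Atg16l1 and Lamp2 were the 7 that fell, beside 18.0% of all genes. The median log2 fold change, knockdown minus WT, was 0.07 over the members and -0.01 over all genes, and single members lay between -0.68 and 0.85. In 25 members the knockdown libraries lay wholly on one side of WT replicates 2 and 3, beside 59.7% of all genes. They were above in 16 members, beside 30.4% of all genes, and below in 9, beside 29.4%. Bulk RNA cannot tell fewer cells with an RNA from less of it per cell.

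**Figure D1:**
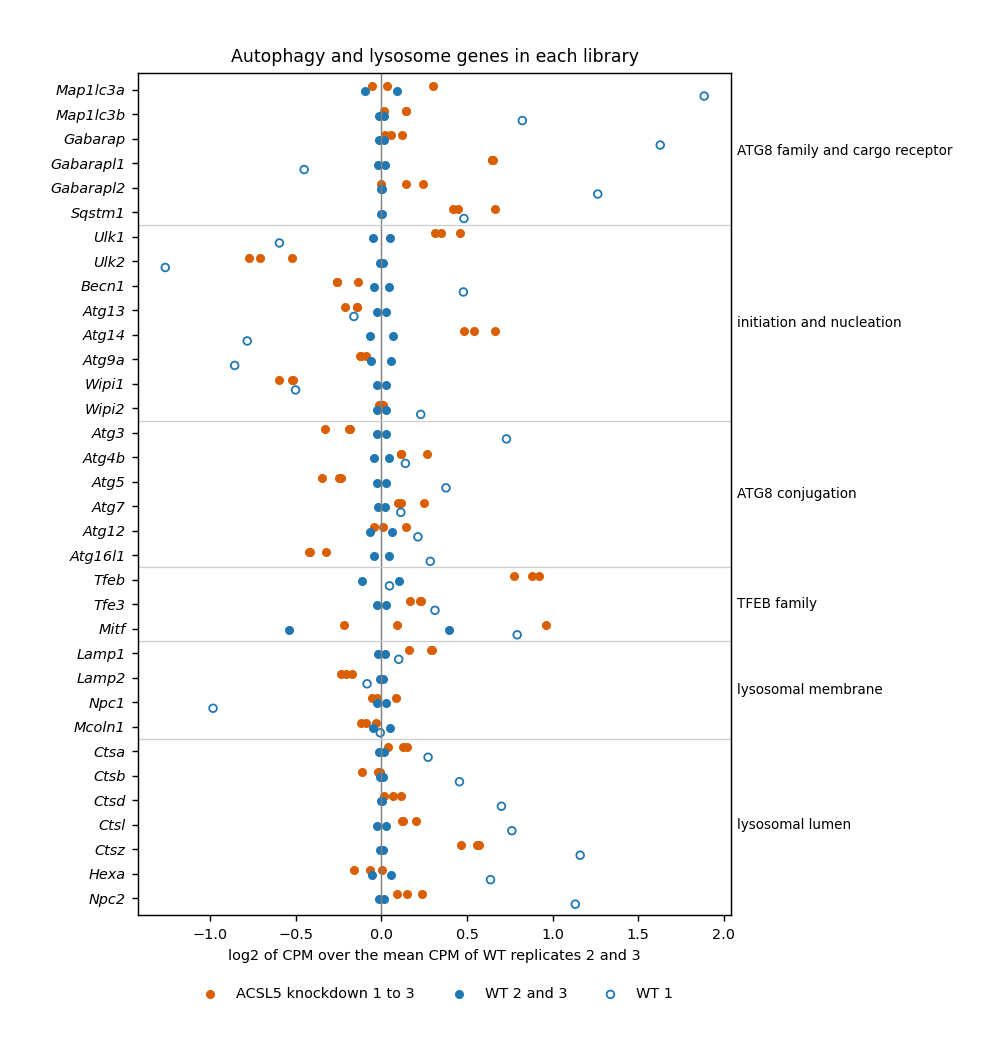
Level of each of the 34 members in each library, as the log2 ratio of its CPM to the mean CPM of WT replicates 2 and 3 (x axis), with members grouped by role down the page. Filled orange points are the 3 ACSL5 knockdown libraries, filled blue points are WT replicates 2 and 3, and open blue points are WT replicate 1, which for Gabarap stood at 697.7 CPM, against 223 to 246 CPM in the other 5 libraries.

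Over all 6 libraries the same test called none of the 34 members, beside 0% of all 14679 genes tested, with 6 members at an unadjusted p below 0.05 beside 16.0% of all genes. DESeq2 on the 6 libraries called 3 members, beside 7.68% of all genes. Gabarapl1 and Tfeb were higher, beside 3.90% of all genes, and Atg16l1 was lower, beside 3.78%. Down-weighting the odd library in place of leaving it out (limma-voom with quality weights) called 15 members, beside 40.4% of all genes. Of these 8 were higher, beside 20.5%, and 7 lower, beside 19.9%. Against all 3 WT libraries, 5 members lay wholly above WT in the knockdown libraries (Gabarapl1, Ulk1, Atg14, Tfeb and Lamp1, beside 18.7% of all genes) and 6 wholly below (Becn1, Wipi1, Atg3, Atg5, Atg16l1 and Lamp2, beside 15.6%), together 11 of 34 beside 34.3% of all genes.

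**Figure D2:**
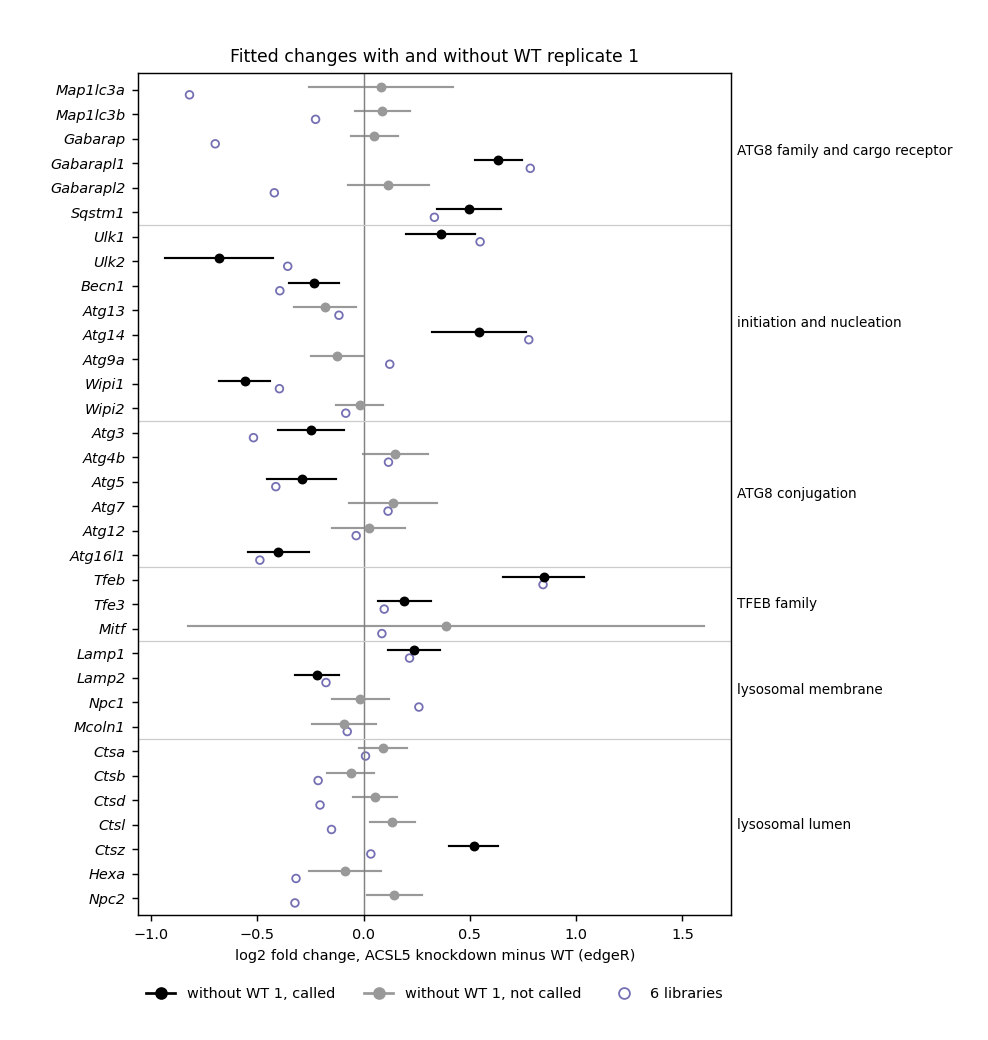
Fitted log2 fold change, knockdown minus WT, of each member (x axis; edgeR), with members grouped by role. Filled points with bars give the fit without WT replicate 1 and its 95% confidence interval, black where adjusted p was below 0.05 and grey where it was not, and open purple points give the 6-library fit, in which no member passed. Tfeb was at 0.85 and 0.84 in the 2 fits, while Ctsz was at 0.52 and 0.03.

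The promoters of the members were read first, since the TFEB family acts through E-boxes. Promoter windows of 250 bases before and 50 after the start of the gene (RefSeq, GRCm38.p6) were matched for 28 of the 34 members. The E-box CACGTG, which reads the same on both strands, was found in 9 of these 28 (32.1%), beside 8.09% of the 27025 genes with a window and 11.6% of those tested. Its extended form GTCACGTG, which contains the E-box and was searched on both strands, was found in 7 of 28 (25.0%), beside 2.55% of all genes with a window and 4.69% of those tested. Windows around matches are shown for 2 members that rose (Lamp1, Atg14), 2 that fell (Atg3, with the extended form, and Atg5, with the E-box alone) and 2 that did not pass (Ctsd, Mcoln1), in the direction of the gene, with the match around which the window was drawn in capitals (the Lamp1 window holds 2 further E-boxes, left in lower case):
Lamp1, chr8:13159113-13159160, plus strand: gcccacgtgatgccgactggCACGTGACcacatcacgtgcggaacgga
Atg14, chr14:47568408-47568455, minus strand: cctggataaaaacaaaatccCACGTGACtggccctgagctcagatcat
Atg3, chr16:45158713-45158760, plus strand: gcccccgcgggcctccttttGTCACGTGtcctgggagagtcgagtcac
Atg5, chr10:44268305-44268350, plus strand: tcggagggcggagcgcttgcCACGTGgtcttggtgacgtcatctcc
Ctsd, chr7:142387898-142387945, minus strand: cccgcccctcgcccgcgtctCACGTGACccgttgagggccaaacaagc
Mcoln1, chr8:3500426-3500473, plus strand: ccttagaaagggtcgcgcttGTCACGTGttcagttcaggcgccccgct

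Members with the extended E-box lay on both sides of 0, between -0.25 and 0.54. Of these 7, Lamp1 and Atg14 rose, beside 16.3% of all genes, and Atg3 fell, beside 18.0%. Ctsa, Ctsd, Mcoln1 and Atg7 did not pass, and the median log2 fold change of the 7 was 0.09. The 19 members with neither motif in the window had a median of 0.12. Of them 6 rose, beside 16.3% of all genes, and 3 fell, beside 18.0%. Tfeb, Gabarapl1, Ctsz and Sqstm1 were among those on the higher side, and Wipi1 and Ulk2 among those on the lower side. A difference between the motif groups was not tested. Atg5 and Ctsl had the E-box without the extended form. A match is a description of the letters, and no binding was measured.

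**Figure D3:**
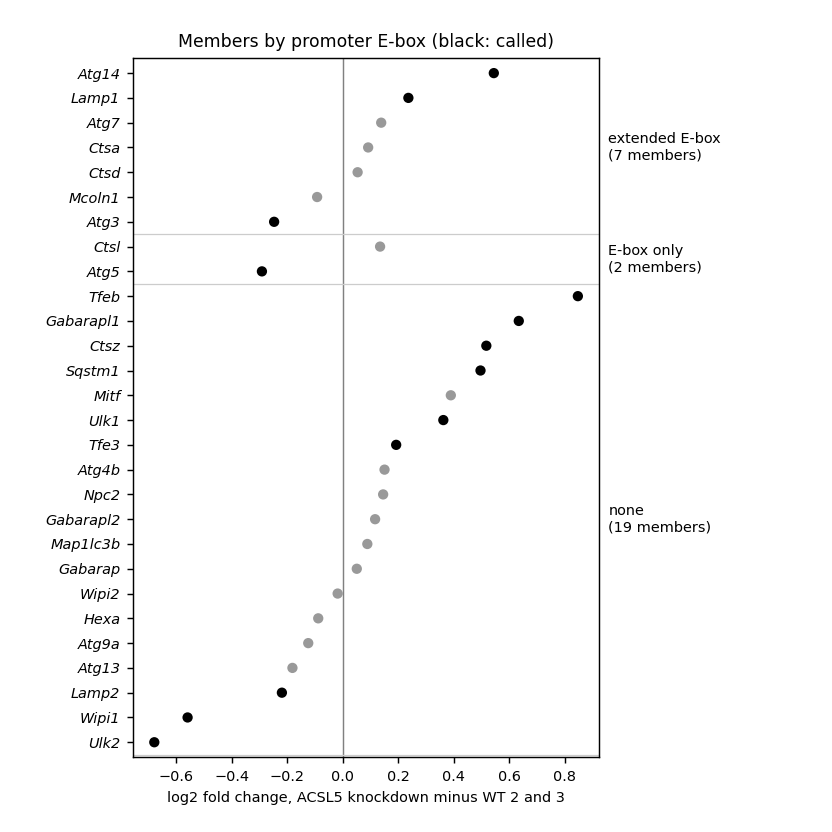
Log2 fold change without WT replicate 1, knockdown minus WT (x axis), of the 28 members with a promoter window, grouped by the extended E-box (7 members), the E-box only (2) and neither (19). Black points passed the test and grey points did not, and members with the extended E-box lie between -0.25 and 0.54.

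Of the ATG8 family and its cargo receptor, Gabarapl1 and Sqstm1 rose and the other 4 did not pass (33.3% called, beside 34.3% of all genes). Gabarapl1, whose protein is a ubiquitin-like member of the GABARAP branch that is attached to autophagosomes, had 103.5, 103.6 and 104.0 CPM in the knockdown libraries, against 48.4, 67.2 and 65.1 CPM in the WT libraries. Its 3 knockdown values lay together above every WT value. The log2 fold change was 0.63 (SE 0.05, edgeR adjusted p = 1.5e-05), and over the 6 libraries it was 0.78 (adjusted p = 0.13). Sqstm1, the gene of p62, the receptor that carries ubiquitinated cargo to ATG8 proteins and is itself degraded by autophagy, had 632, 533 and 543 CPM in the knockdown libraries, against 557, 399 and 399 CPM in the WT libraries. The knockdown libraries were above WT replicates 2 and 3, while WT replicate 1 lay among them. The change was 0.50 (SE 0.0668, edgeR adjusted p = 0.000611) and, with WT replicate 1, 0.33 (adjusted p = 0.432).

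The 4 ATG8 genes that did not pass were the genes of LC3A, LC3B, GABARAP and GATE-16. Their edgeR log2 fold changes lay between 0.05 and 0.12 without WT replicate 1. Over the 6 libraries all 4 were of the other sign and did not pass, with -0.82 for Map1lc3a, -0.23 for Map1lc3b, -0.70 for Gabarap and -0.42 for Gabarapl2. For Gabarap the 95% interval without WT replicate 1 ran from -0.06 to 0.16, so that the 0.63 of its paralogue Gabarapl1 lay outside it. A difference between these paralogues was not tested. Gabarap had 229, 234 and 246 CPM in the knockdown libraries, against 698, 228 and 223 CPM in the WT libraries. Map1lc3b, the gene of the LC3 protein used as the standard marker of autophagosomes, had 97.4, 106.5 and 106.2 CPM, against 170.3, 95.1 and 97.4 CPM, and a change of 0.09 (interval -0.04 to 0.22, adjusted p = 0.28). Without knockdown replicate 1 its change was 0.14 and passed (edgeR adjusted p = 0.0191). Gabarapl2, also active in Golgi transport, had 31.9, 28.8 and 34.2 CPM in the knockdown libraries, against 69.3, 28.9 and 28.9 CPM in the WT libraries. In all of Map1lc3a, Map1lc3b, Gabarap and Gabarapl2 the WT library that was high was WT replicate 1, and for Map1lc3a it had 25.2 CPM against 6.38 to 8.40 CPM in the other 5 libraries. Map1lc3a has a GC content of 63.1%. Its change in the 5-library fit turned to -0.43 (edgeR adjusted p = 0.0661) after correction for the trend with GC content. Map1lc3b (0.08), Gabarap (0.06) and Gabarapl2 (0.22) stayed positive after the same correction and did not pass. How reads shared by such similar genes or their pseudogenes were assigned is not given in the sources used here. Per length, Gabarap was the most abundant ATG8 gene, with 353, 369.8 and 389 TPM in the knockdown libraries, against 595, 357 and 342 TPM in the WT libraries. Gabarapl1 had 95.8, 98.7 and 100.5 TPM in the knockdown libraries, against 23.8, 65.0 and 60.2 TPM in the WT libraries, and Map1lc3a had at most 30.2 TPM.

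The initiation and nucleation genes split. Of 8, Ulk1 and Atg14 rose and Ulk2, Becn1 and Wipi1 fell (62.5% called, beside 34.3% of all genes). Ulk1, the kinase at the head of the pathway, had 42.1, 46.6 and 43.2 CPM in the knockdown libraries, against 22.4, 35.0 and 32.7 CPM in the WT libraries. All 3 knockdown values were above all 3 WT values. The change was 0.36 (SE 0.0734, edgeR adjusted p = 0.00346), and 0.55 (adjusted p = 0.262) over the 6 libraries. This call ended when the trend of each library's log2 CPM deviations with GC content was removed (0.15, edgeR adjusted p = 0.137). Without WT replicate 3 as well, which leaves 1 WT library, the change was 0.31. Its paralogue Ulk2 had 8.72, 9.91 and 8.33 CPM in the knockdown libraries, against 5.94, 14.4 and 14.2 CPM in the WT libraries. WT replicate 1 lay below the knockdown libraries and WT replicates 2 and 3 above them. The change of -0.68 (SE 0.114, edgeR adjusted p = 0.00119) was the lowest among the members and was -0.36 (adjusted p = 0.613) over the 6 libraries. The 2 paralogues also differed in level, with 15.6, 18.3 and 15.0 TPM of Ulk1 and 3.21, 3.67 and 3.36 TPM of Ulk2 in the knockdown libraries, against 3.60, 12.2 and 11.7 TPM of Ulk1 and 0.84, 5.16 and 4.72 TPM of Ulk2 in the WT libraries.

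Atg14 directs the Beclin 1 lipid kinase complex to autophagy, and it moved opposite to Becn1 itself. Atg14 had 19.9, 18.3 and 17.6 CPM in the knockdown libraries, against 7.31, 12.0 and 13.2 CPM in the WT libraries, and no values overlapped. The change was 0.54 (SE 0.0998, edgeR adjusted p = 0.00201), and 0.78 (adjusted p = 0.223) over the 6 libraries. Becn1, the scaffold of the complex, had 128, 117 and 117 CPM in the knockdown libraries, against 195, 136 and 144 CPM in the WT libraries. The groups did not overlap, and WT replicate 1 was the highest library. The change was -0.23 (SE 0.0532, edgeR adjusted p = 0.00667), and -0.39 (adjusted p = 0.344) over the 6 libraries. It was -0.13 (adjusted p = 0.0834) with the GC trend removed, -0.20 (adjusted p = 0.0508) without knockdown replicate 2 and -0.19 (adjusted p = 0.111) without WT replicate 3. In the authors' TPM, Becn1 had 149.6, 118 and 113 in the knockdown libraries, against 75.9, 121 and 144 in the WT libraries, values that overlap, and the change on the log2(TPM + 1) scale was -0.06 (limma adjusted p = 0.783).

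Wipi1, which binds phosphatidylinositol 3-phosphate on the forming membrane, had 54.4, 51.5 and 54.6 CPM in the knockdown libraries, against 55.1, 79.6 and 76.5 CPM in the WT libraries. The knockdown libraries were well below WT replicates 2 and 3 and just below WT replicate 1. The change was -0.56 (SE 0.055, edgeR adjusted p = 5.14e-05), and -0.40 (adjusted p = 0.333) over the 6 libraries. The other 3 genes of the group were Atg13, a subunit of the ULK complex, Atg9a, the membrane protein of the vesicles that seed autophagosomes, and Wipi2, the paralogue of Wipi1 that recruits ATG16L1. They lay between -0.18 and -0.02 and did not pass. Over the 6 libraries Atg13 was at -0.12, Wipi2 at -0.08 and Atg9a, of the other sign, at 0.12. Wipi2 had 88.5, 89.4 and 87.8 CPM in the knockdown libraries, against 104.1, 90.5 and 87.1 CPM in the WT libraries. Without WT replicate 1 its interval of -0.13 to 0.09 did not reach the value of Wipi1. Over the 6 libraries its interval of -0.4 to 0.231 did, with Wipi1 at -0.396. A difference between these paralogues was not tested. Atg13 (-0.21, edgeR adjusted p = 0.025) and Atg9a (-0.25, adjusted p = 0.00367) passed as lower once the GC trend was removed.

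Wipi1 and Wipi2 share a sequence that was picked from the fold changes of all genes. GAACTAC and AACTACA, found in an earlier analysis of these same data, stood together as 8 bases in the 3′ UTR (GENCODE M21, GRCm38) of 291 of the genes tested, of which 50.2% were lower and 5.15% higher. Of 1169 genes with either or both of them but not the joined 8 bases, 35.7% were lower and 10.4% higher. Of 11034 with neither 17.8% were lower and 19.8% higher. Because the letters were picked from these fold changes, the members' among them, those shares and the member counts that follow are a description. Wipi1 and Wipi2 have the 8 bases, and Becn1, Lamp2, Ctsb, Map1lc3b, Mitf and Npc1 have a 7-base sequence without the joined 8 bases. Of these 8 members none rose and Wipi1, Becn1 and Lamp2 fell, while of the 26 members without the letters 8 rose and 4 fell. The sites of the 3 members that fell and of Wipi2 are shown with the match in capitals, 5′ to 3′ in the direction of the gene:
Wipi1, chromosome 11: ggtcatctGAACTACAtagtgagt
Wipi2, chromosome 5: ttgtcctgGAACTACAggcccaag
Becn1, chromosome 11: ctgatgggGAACTACtttctact
Lamp2, chromosome X: atactatcAACTACAaatgaatc
The sequence of the reagent that lowered Acsl5 is not given in the sources used here, and the part of these letters in the members' changes was not tested.

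In the conjugation machinery no gene of 6 rose, beside 16.3% of all genes. Atg3, Atg5 and Atg16l1 fell, beside 18.0% of all genes, the same 3 that had an unadjusted edgeR p below 0.05. With the GC trend removed 1 of the 6 fell, beside 16.0% of all genes, and 0 rose. ATG16L1 forms the complex with the ATG12 to ATG5 conjugate that sets where ATG8 proteins are attached, and Atg16l1 had 40.3, 43.1 and 40.4 CPM in the knockdown libraries, against 65.8, 55.6 and 52.3 CPM in the WT libraries. Every knockdown value was below every WT value. The change was -0.40 (SE 0.0645, edgeR adjusted p = 0.000935), and -0.49 over the 6 libraries, where edgeR gave an adjusted p of 0.196 and DESeq2 one of 0.0245. Atg5 had 28.1, 28.3 and 26.1 CPM in the knockdown libraries, against 43.2, 33.9 and 32.7 CPM in the WT libraries, again with no overlap. Its change was -0.29 (SE 0.0733, edgeR adjusted p = 0.0109), and -0.41 (adjusted p = 0.272) over the 6 libraries.

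Atg3, the E2-like enzyme that passes ATG8 proteins to phosphatidylethanolamine, had 36.9, 33.6 and 37.1 CPM in the knockdown libraries, against 69.9, 41.3 and 42.9 CPM in the WT libraries. The knockdown libraries were lower than all WT libraries, of which WT replicate 1 stood highest. The change was -0.25 (SE 0.0696, edgeR adjusted p = 0.0187), and -0.52 (adjusted p = 0.344) over the 6 libraries. With the GC trend removed, Atg3 (-0.10, adjusted p = 0.288) and Atg5 (-0.18, adjusted p = 0.0846) no longer passed. Neither did they without WT replicate 2 (Atg3 adjusted p = 0.0762, Atg5 0.0993) or without WT replicate 3 (Atg3 0.162, Atg5 0.0634), and Atg3 also did not without knockdown replicate 2 (0.0838).

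The 3 conjugation genes that did not pass were Atg7, the E1-like enzyme, Atg12, the ubiquitin-like partner of ATG5, and Atg4b, the protease that trims ATG8 proteins. They lay between 0.02 and 0.15, and over the 6 libraries Atg7 and Atg4b were both at 0.12 and Atg12 was at -0.04. Atg4b had 51.2, 56.8 and 51.1 CPM in the knockdown libraries, against 52.1, 45.8 and 48.7 CPM in the WT libraries, and its change of 0.15 (adjusted p = 0.119) stood at -0.23 on the log2(TPM + 1) scale. Without knockdown replicate 1 its count-based change was 0.19 (edgeR adjusted p = 0.0237).

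Of the TFEB family, Tfeb and Tfe3 rose (66.7% called, beside 34.3% of all genes) and Mitf was barely detected. Tfeb, the master transcription factor of lysosomal genes, had 41.9, 38.9 and 43.0 CPM in the knockdown libraries, against 23.5, 24.5 and 21.1 CPM in the WT libraries. The 3 WT values lay close together, WT replicate 1 included, and all knockdown values were above them. The change was 0.85 (SE 0.0868, edgeR adjusted p = 6.93e-05), the largest among the members in this fit. Over the 6 libraries it was 0.84 (edgeR adjusted p = 0.095, DESeq2 adjusted p = 3.6e-07). Tfeb has a GC content of 63.2%, and with the GC trend removed its change was 0.34 and still passed (edgeR adjusted p = 0.00747). It was then no longer the largest, with Gabarapl1 at 0.61, Atg14 at 0.565 and Sqstm1 at 0.44. In TPM Tfeb had 29.9, 27.9 and 31.6 in the knockdown libraries, against 11.0, 20.1 and 17.4 in the WT libraries. The change of Tfeb on the log2(TPM + 1) scale was 0.64 (limma adjusted p = 0.0161), as was that of Gabarapl1.

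Tfe3, the paralogue that shares the targets of Tfeb, had 61.5, 58.9 and 61.4 CPM in the knockdown libraries, against 65.1, 51.4 and 53.4 CPM in the WT libraries. WT replicate 1 was the highest of all 6 libraries. The change was 0.19 (SE 0.0557, edgeR adjusted p = 0.0215), and 0.10 (adjusted p = 0.739) over the 6 libraries. It did not pass without knockdown replicate 3 (0.19, adjusted p = 0.0518), WT replicate 2 (0.16, 0.178) or WT replicate 3 (0.22, 0.0932). Mitf, the melanocyte member of the family, had 0.503, 0.921 and 0.405 CPM in the knockdown libraries, against 0.818, 0.620 and 0.324 CPM in the WT libraries. Its change was 0.39, with a 95% interval of -0.82 to 1.60, and 0.09 over the 6 libraries, and values within that interval could not be told apart at this depth.

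The genes of the lysosomal membrane moved little. Lamp1, which codes for one of the main glycoproteins lining the lysosome, had 681, 745 and 749 CPM in the knockdown libraries, against 653, 617 and 602 CPM in the WT libraries. The groups did not overlap, although knockdown replicate 1 lay close to WT replicate 1. The change was 0.24 (SE 0.0546, edgeR adjusted p = 0.00721), and 0.22 (adjusted p = 0.472) over the 6 libraries. It did not pass without WT replicate 2 (0.25, adjusted p = 0.0564) or WT replicate 3 (0.22, adjusted p = 0.102), nor on the log2(TPM + 1) scale (0.30, limma adjusted p = 0.0743).

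Lamp2, the paralogue of Lamp1 needed for fusion with autophagosomes and for chaperone-mediated autophagy, moved the other way. It had 128, 131 and 126 CPM in the knockdown libraries, against 139.7, 147 and 149 CPM in the WT libraries, with no overlap. The change was -0.22 (SE 0.0459, edgeR adjusted p = 0.0041), and -0.18 (adjusted p = 0.475) over the 6 libraries. With the GC trend removed it was -0.06 (adjusted p = 0.312), and without WT replicate 3 it was -0.22 (adjusted p = 0.0581). In TPM the groups overlapped, with 76.4, 82.1 and 79.2 in the knockdown libraries, against 43.5, 80.4 and 84.2 in the WT libraries.

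The other 2 membrane genes did not pass. Mcoln1, the calcium channel through which lysosomes release calcium that activates TFEB, had 39.9, 40.7 and 42.3 CPM in the knockdown libraries, against 43.1, 44.8 and 41.7 CPM in the WT libraries. Npc1, which exports cholesterol from the lysosome, had 54.2, 50.1 and 49.1 CPM in the knockdown libraries, against 25.8, 50.1 and 52.1 CPM in the WT libraries, and only WT replicate 1 stood away from the rest. The changes were -0.09 for Mcoln1 and -0.02 for Npc1, and over the 6 libraries -0.08 and, of the other sign, 0.26. Per length, Lamp1 had the highest mean of all 34 members, with 629.5, 742 and 738 TPM in the knockdown libraries, against 302, 570.4 and 568 TPM in the WT libraries.

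Of the 7 genes of the lysosomal lumen, Ctsz rose and 6 did not pass (14.3% called, beside 34.3% of all genes). Ctsz, a cysteine carboxypeptidase, had 202, 216 and 217 CPM in the knockdown libraries, against 327, 148 and 145 CPM in the WT libraries. The knockdown libraries lay above WT replicates 2 and 3 and below WT replicate 1. The change was 0.52 (SE 0.0521, edgeR adjusted p = 6.09e-05) without WT replicate 1 and 0.03 (adjusted p = 0.965) with it, and 0.34 (adjusted p = 0.00071) without WT replicate 1 and with the GC trend removed.

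The major proteases did not pass. Ctsd, the main aspartic protease of the lysosome, had 396, 424 and 410.3 CPM in the knockdown libraries, against 635, 392 and 390.3 CPM in the WT libraries. Ctsb, a cysteine protease, had 392, 417 and 420.1 CPM in the knockdown libraries, against 579.9, 419.9 and 426 CPM in the WT libraries. Beside WT replicates 2 and 3, the knockdown libraries overlapped for Ctsb and lay slightly above for Ctsd. The changes were 0.05 for Ctsd (95% interval -0.05 to 0.16) and -0.06 for Ctsb (interval -0.17 to 0.05), and over the 6 libraries -0.21 for both.

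Ctsa, the protective protein of beta-galactosidase and neuraminidase, Ctsl, a cysteine endopeptidase, Hexa, the alpha subunit of hexosaminidase A, and Npc2, the cholesterol carrier that hands over to NPC1, lay between -0.09 and 0.15. Over the 6 libraries Ctsa was at 0.009, Hexa at -0.32, and Ctsl (-0.15) and Npc2 (-0.32) were of the other sign. Ctsl was at the border of the test. It had 183, 192 and 182 CPM in the knockdown libraries, against 284, 164 and 171 CPM in the WT libraries, so that the knockdown libraries lay above WT replicates 2 and 3. Its change was 0.13 (edgeR adjusted p = 0.0527), and it passed in 11 of 17 alternative settings, with the GC trend removed at 0.25 (adjusted p = 0.00223) and without knockdown replicate 1 at 0.16 (adjusted p = 0.00504). Ctsa had 223, 240.3 and 236 CPM in the knockdown libraries, against 261, 214 and 219 CPM in the WT libraries, of which replicate 1 was above and replicates 2 and 3 below the knockdown libraries. Without knockdown replicate 1, Ctsa (0.14, adjusted p = 0.00797) and Npc2 (0.20, adjusted p = 0.00309) passed as higher too. WT replicate 1 was the highest of the 6 libraries in all 7 lumen genes, as it was for none of the 4 membrane genes.

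Beyond the members, 153 other genes of the pathway, in 8 lists, moved in both directions too. Of the 151 tested without WT replicate 1, 29 rose and 43 fell (47.7%, beside 34.3% of all genes), with a median log2 fold change of -0.06. Over the 6 libraries edgeR called 0 of the 150 tested, beside 0% of all genes. Unless stated otherwise, values below are from the edgeR fit without WT replicate 1. The named genes are the highest and lowest called ones of each list.

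Among 11 regulators of TFEB, 2 rose and 4 fell (54.5% called, beside 34.3% of all genes). Flcn, the gene of folliculin, which helps to keep TFEB out of the nucleus, had 53.7, 51.7 and 50.1 CPM in the knockdown libraries, against 31.2, 31.4 and 32.8 CPM in the WT libraries. All 3 WT libraries lay together below the knockdown libraries. Its change was 0.68 (SE 0.063, edgeR adjusted p = 3.78e-05), and 0.71 over the 6 libraries. Ppp3cb, a catalytic subunit of calcineurin, the phosphatase that activates TFEB, had 35.1, 37.7 and 36.3 CPM in the knockdown libraries, against 49.0, 57.2 and 55.8 CPM in the WT libraries, with no overlap. Its change was -0.65 (SE 0.063, edgeR adjusted p = 4.69e-05), and -0.57 over the 6 libraries. The calcineurin subunit gene Ppp3r1 was at -0.34 and, with the GC trend removed, at -0.20, the Rag GTPase gene Rraga at -0.22 and the folliculin partner gene Fnip2 at 0.21.

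Of 9 genes of sorting to the lysosome 3 rose and 3 fell (66.7% called, beside 34.3% of all genes). Nagpa, the enzyme that uncovers the mannose 6-phosphate tag of lysosomal hydrolases, had 44.3, 41.0 and 41.8 CPM in the knockdown libraries, against 26.3, 23.2 and 20.0 CPM in the WT libraries. No library of one group overlapped with the other. Its change was 0.96 (SE 0.0827, edgeR adjusted p = 2.58e-05), and 0.61 with the GC trend removed. Gnptab, which starts the same tag, was at -0.33, the receptor genes Sort1 and Igf2r were at -0.29 and -0.20, and the receptor gene M6pr at 0.16 and, with the GC trend removed, at 0.26. For Igf2r the value over the 6 libraries was 0.23, of the other sign. In that fit Nagpa was at 0.87, Gga1 at 0.61, Gnptab at -0.08, Sort1 at -0.07 and M6pr at 0.025. The adaptor gene Gga1 was at 0.39 and, with the GC trend removed, at -0.07 and no longer called (adjusted p = 0.405).

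Of 14 other autophagy receptors none passed as higher in edgeR, beside 16.3% of all genes, and 6 fell, beside 18.0%. Of the list, 7 were at an unadjusted edgeR p below 0.05 in either direction and 1 passed as higher with the GC trend removed. Retreg1, a receptor for the endoplasmic reticulum, was at -0.66, Bnip3, a receptor for mitochondria whose gene is also known to respond to hypoxia, at -0.64, and Optn, a receptor for mitochondria and bacteria, at -0.59. Retreg1 had 23.4, 25.5 and 24.0 CPM in the knockdown libraries, against 40.8, 38.8 and 37.4 CPM in the WT libraries. The WT libraries were all higher, WT replicate 1 among them.

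Of 22 other core genes 4 rose and 5 fell (40.9% called, beside 34.3% of all genes). Uvrag, an alternative partner of Beclin 1, was at 0.51, and Atg2a, which transfers lipids to the growing membrane, at 0.49. Atg101, of the ULK complex, was at 0.49 without WT replicate 1 and at 0.005 with it. With the GC trend removed Atg2a was at 0.17 (adjusted p = 0.0494) and Atg101 at 0.28. Trp53inp2, which binds ATG8 proteins, was at -0.68, Pik3c3, the lipid kinase of the Beclin 1 complex, at -0.25, and Zfyve1, a marker of the sites where autophagosomes form, at -0.25 and, over the 6 libraries, at 0.09. Of 15 fusion genes 4 rose and 5 fell (60.0% called, beside 34.3% of all genes). Tecpr1, a tether of autophagosomes and lysosomes, was at -0.67, the autophagosomal SNARE gene Stx17 at -0.55 and the adaptor gene Plekhm1 at -0.24 (-0.36 with the GC trend removed), while the HOPS tether genes Vps33a and Vps18 were at 0.28 and 0.26 and the small GTPase gene Rab7 at 0.23. Vps18 was at 0.04 (edgeR adjusted p = 0.721) with the GC trend removed. Over the 6 libraries Tecpr1 was at -0.60, Stx17 at -0.40, Plekhm1 at -0.035, Vps33a at 0.36, Vps18 at 0.57 and Rab7 at 0.28.

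The vacuolar ATPase, the pump that acidifies the lysosome, had 6 higher and 4 lower of 17 (58.8% called, beside 34.3% of all genes). Of its genes, Tcirg1, Atp6v0b and Atp6v0a2 were at 0.47, 0.30 and 0.27, and Atp6v1d, Atp6v0d1 and Atp6ap1 at -0.33, -0.33 and -0.16. Atp6v0b was at -0.18 over the 6 libraries, of the other sign. With the GC trend removed Tcirg1 was at 0.22, Atp6v0b at 0.18 and Atp6v1d at -0.20. Of 38 other hydrolases and activators tested 7 rose and 11 fell (47.4% called, beside 34.3% of all genes). The glycosidase genes Manba and Man2b1 were at -0.75 and -0.45, while the peptidase gene Dpp7 was at 0.49, the phospholipase gene Pla2g15 at 0.36 and the gene of acid alpha-glucosidase, Gaa, at 0.34. With the GC trend removed Gaa (0.05, adjusted p = 0.558) and Pla2g15 (0.28, adjusted p = 0.0904) were not called. Of 25 other membrane proteins 3 rose and 5 fell (32.0% called, beside 34.3% of all genes). Those that rose were Cln3 (0.32), the cystine exporter gene Ctns (0.29) and the Ragulator subunit gene Lamtor3 (0.21). Mfsd8 (-0.43), Ostm1 (-0.41) and Tmem106b (-0.28) were the lowest. Lamtor3 was at -0.07 over the 6 libraries, of the other sign, and at 0.34 with the GC trend removed. Over the 6 libraries Cln3 was at 0.11, Ctns at 0.36, Mfsd8 at -0.42, Ostm1 at -0.39 and Tmem106b at -0.09. Mfsd8 (adjusted p = 0.0854), Tmem106b (0.0688) and, among the TFEB regulators, Rraga (0.0879) lost their call with the GC trend removed.

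**Figure D4:**
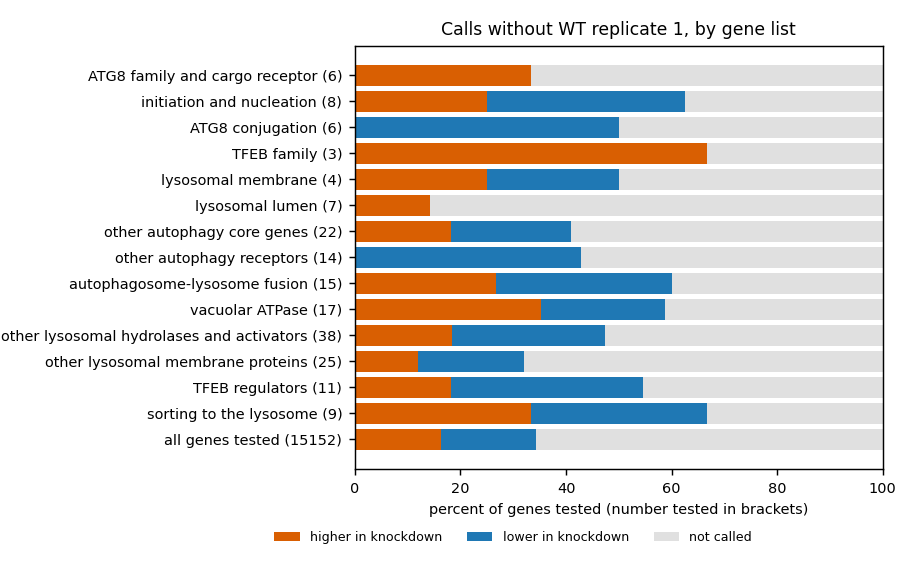
Percent of the genes tested in each list that were higher (orange), lower (blue) or not called (grey) in knockdown libraries without WT replicate 1, with the number tested in brackets. The top 6 bars are the members by role, the next 8 the other lists, and the last all 15152 genes, of which 16.3% were higher and 18.0% lower.

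The calls differed in how they held under other processing of the 5 libraries and with 1 more library left out. Both kinds are among the 17 alternative settings. Gabarapl1, Sqstm1, Atg14, Wipi1, Atg16l1, Tfeb and Ctsz passed in all 17 alternative settings without WT replicate 1, and Ulk2 in 15. With the GC trend removed 13 members passed, beside 31.6% of all genes, with 8 higher (15.6% of all genes) and 5 lower (16.0%), and Ulk1, Becn1, Atg3, Atg5 and Lamp2 were the ones lost. The authors' TPM, tested with limma-trend on the log2(TPM + 1) scale, gave 9 of the 33 members above its filter, which left out Mitf, beside 17.8% of all genes. Of these 7 were higher, beside 10.5%, and 2 lower, beside 7.26%. There 8 of the 15 lost their call: Ulk2 (-0.43, limma adjusted p = 0.052), Ulk1 (0.41, 0.0507), Tfe3 (0.22, 0.0527), Atg5 (-0.25, 0.0609), Lamp1 (0.30, 0.0743), Atg3 (-0.14, 0.174), Lamp2 (-0.05, 0.529) and Becn1 (-0.06, 0.783). On that scale Ctsa (0.23, 0.0442) and Ctsl (0.23, 0.0471) passed as higher.

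TPM and counts differed little for most members. For 32 members compared, the log2 ratio of TPM to CPM, here from library totals without TMM, was centred on each library's median. Across the 5 libraries it varied by more than 0.5 in 1 member, Atg4b (0.72), beside 10.5% of 11054 genes. The median variation over these genes was 0.16. The widest after Atg4b were Map1lc3b (0.48), Ctsb (0.47) and Becn1 (0.42). Map1lc3b had 62.5, 97.1 and 99.6 TPM in the knockdown libraries, against 115.6, 79.1 and 88.4 TPM in the WT libraries. Knockdown replicate 1 was the lowest library in TPM, while in CPM it lay at 97.4 beside 95.1 and 97.4 in WT replicates 2 and 3. Ctsb had 154, 218 and 218 TPM in the knockdown libraries, against 127, 231 and 229 TPM in the WT libraries, so that knockdown replicate 1 and WT replicate 1 were both low.

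**Figure D5:**
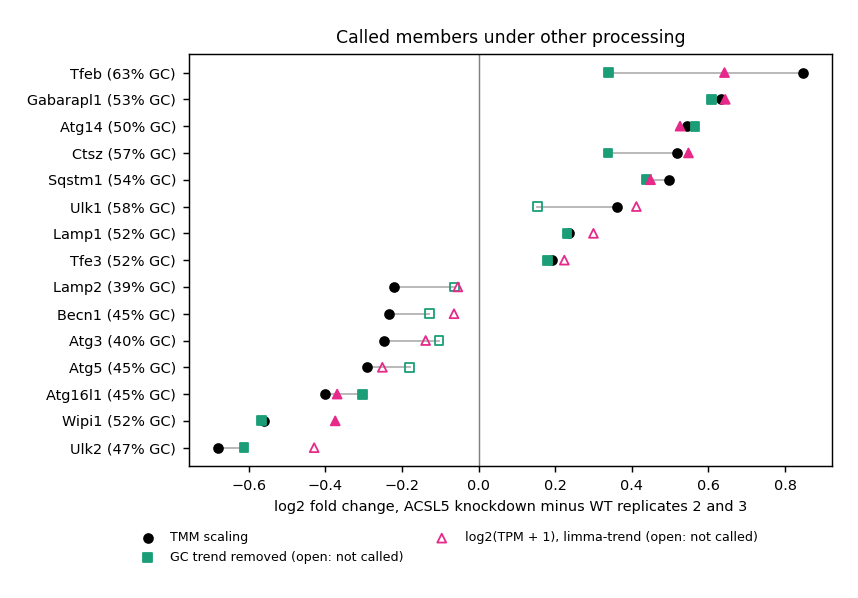
Log2 fold change, knockdown minus WT replicates 2 and 3 (x axis), of the 15 called members, with the GC content of each gene in brackets. Black circles are the edgeR fit with TMM scaling, green squares the fit with the GC trend removed and pink triangles limma-trend on log2(TPM + 1), open where adjusted p was 0.05 or above. Tfeb moved most, with 0.85 in the first and 0.34 in the second, and no member changed sign.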

How the data were processed

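Total RNA of KPC1199 cells was extracted with TRIzol and sequenced on Illumina instruments, per the labels' protocols. The authors deposited expected counts per gene, of which 10.1% to 13.0% in a library were not whole, and TPM, which sums to 999999 to 1000001 in each library, together with gene lengths and group-mean columns that were not used. Tools named in the submitters' processing notes, without roles or versions, are StringTie, HISAT2, fastp and DESeq2, and the notes name the human builds hg38 and GRCh38, while 56980 of the gene identifiers are mouse Ensembl identifiers. Strandedness, the quantifying program and the treatment of multiply matching reads are not given in the sources used.

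Counts were rounded to whole numbers, filtered with filterByExpr and scaled by TMM. The test was the two-sided quasi-likelihood F test in edgeR 4.0.16 (robust estimation, R 4.3.3), with Benjamini-Hochberg adjustment over all genes tested and a threshold of 0.05. CPM are TMM-scaled. limma 3.58.1 and DESeq2 1.42.0 gave alternatives. TPM were tested on log2(TPM + 1) and log2(TPM + 0.1), scales that understate the change of low genes. The scripts were tested on simulated data. Trends with GC content or length were removed as lowess curves of each library's log2 CPM deviations (span 0.3). A confidence interval of a fold change is the fitted one at 95%. The members, the lists of other genes, the left-out library and the tests were chosen with earlier results of these data known. All called members are given in full, other members by ranges with up to 3 examples per role of the highest mean TPM (Ctsb, Map1lc3a and values where a setting changed a call were added after they were seen), and of the other lists up to 3 highest and 3 lowest called genes with at least 5 CPM on average and no overlap with WT replicates 2 and 3. A gene that this rule names is not reported here. Promoter sequences are from RefSeq (GRCm38.p6) and 3′ UTRs from GENCODE M21.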

Additional observations from a re-analysis of the deposited data

How the results depend on the processing

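Over all 6 libraries the count of called members was 0 with edgeR (0% of all genes) and 3 with DESeq2 (7.68% of all genes). It was 1 with the length trend removed (5.99%) and 15 with quality weights (40.4%). Leaving out 1 library gave 0 to 15, 15 being without WT replicate 1 (34.3% of all genes). The other pathway genes gave 0, 12, 13 and 75, beside the same shares of all genes, and 0 to 72 with 1 library left out, 72 being without WT replicate 1. Without WT replicate 1, 15 members passed. The count was 9 on log2(TPM + 1), and 8 (without WT replicate 3) to 20 (without knockdown replicate 1) with 1 more library left out, where the single WT library left is taken to vary as knockdown libraries do. The 72 other genes called became 27 on log2(TPM + 0.1), 26 on log2(TPM + 1), and 33 (without WT replicate 2 or 3) to 85 (without knockdown replicate 1). The 6-library change of Acsl5 passed, in place of an adjusted p of 0.0619, with DESeq2 (-2.45), the length trend removed (-2.60), library totals (-2.31), limma-voom (-2.43), quality weights (-2.28), no filter (-2.40) and no robust estimation (-2.43), and lay between -2.50 and -2.32 with 1 library left out. The cause of these differences was not tested. Without WT replicate 1, 17.8% of all genes were called on log2(TPM + 1). The share of all genes is not given here for log2(TPM + 0.1) or for the other fits with libraries left out. Of the 270 values of called members under other settings, 221 kept direction and call, 49 lost the call and none changed sign.

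Same-numbered libraries did not deviate together from their group means (correlations -0.12, 0.02 and -0.14). The WT means include WT replicate 1, which stood apart, so these correlations cannot tell whether the numbers pair libraries. With the replicate block 19 members passed without WT replicate 1 (38.0% of all genes, beside 34.3% with no block), Map1lc3b, Ctsa, Ctsl and Npc2 being added, and 0 over the 6 libraries. Replicate 1 then holds only a knockdown library and adds nothing to the comparison. Depth limits Mitf, which has below 1 CPM in every library, and the other members are limited by the 2 or 3 libraries per group.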
